A study of Rattus norvegicus with 7 samples.

Results

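The genes described here copy DNA or carry a cell into S phase, the stage of the cell cycle in which the genome is duplicated. The list holds 41 rat genes. A gene was followed through the probe set that the platform annotation assigns to its symbol alone, with the highest mean signal taken where there were several, and the mean over the arrays had to reach 100. This left 36 of the 41 genes, out of 10315 named genes that reached the same level. Cdc6 and Gins2 had no probe set under their own symbol, and Rrm2 was found only on probe sets shared with another symbol. Orc1 and Brca1 were below the limit, with mean signals of 50.5 and 54.6, while the members nearest above it were Pole at 146.6, Chaf1b at 158.8 and Tyms at 163.1.

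The cells were primary cultures of the spinal cord of Sprague-Dawley rat embryos at embryonic day 15, freed of dorsal root ganglia and meninges before they were dissociated. After 3 days in culture they were stretched cyclically by 10% at a frequency of 0.5 Hz. RNA was collected before stretching (0 hours), after 2, 6 and 12 hours, and after 24, 48 and 72 hours. At each time the RNA of 5 animals was pooled and hybridised to 1 Affymetrix GeneChip Rat Genome 230 2.0 array, so 7 arrays carry the whole series. No replicate array exists for any time, and no unstretched culture of a later time was among the arrays, so hours of stress and hours in culture cannot be told apart. The signal of an array is an average over all cells in the dish, and fewer cells of a type cannot be told apart from less RNA per cell.

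Replication starts at origins, where the origin recognition complex, Cdc6 and Cdt1 load the ring-shaped MCM helicase in G1. Cdc45 and the GINS complex then switch the helicase on, primase and the replicative polymerases copy the strands, the clamp Pcna holds the polymerase on DNA, and the ligase joins the fragments of the lagging strand. Many of these genes are switched on together at the passage from G1 to S by E2F transcription factors, which are held back by the retinoblastoma protein until cyclin D and cyclin E kinases release them.

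In the stretched cultures 26 of the 36 members fell with hours and none rose. Fell and rose here mean that the slope of log2(signal + 32) against hours passed limma's test over all 17709 probe sets whose signal averaged 100 or more, at a Benjamini-Hochberg adjusted p under 0.05. The members that fell made up 72.2% of the 36, where 14.1% of all probe sets tested fell and 15.0% rose. Over the named genes, each read from its brightest probe set as the members were, 16.0% fell. The other 10 members also had fitted slopes below 0, so all 36 estimates had the same sign, from a log2 change over 72 hours of -2.79 for Tk1 to -0.05 for Rpa2. The standard errors ran from 0.12 to 0.56 and measure the scatter of the arrays around a straight line over time, not the scatter between cultures. With the array of 2, 48 or 72 hours left out 19, 20 and 21 members fell, where 9.49%, 9.06% and 7.21% of all probe sets fell.

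**Figure D1:**
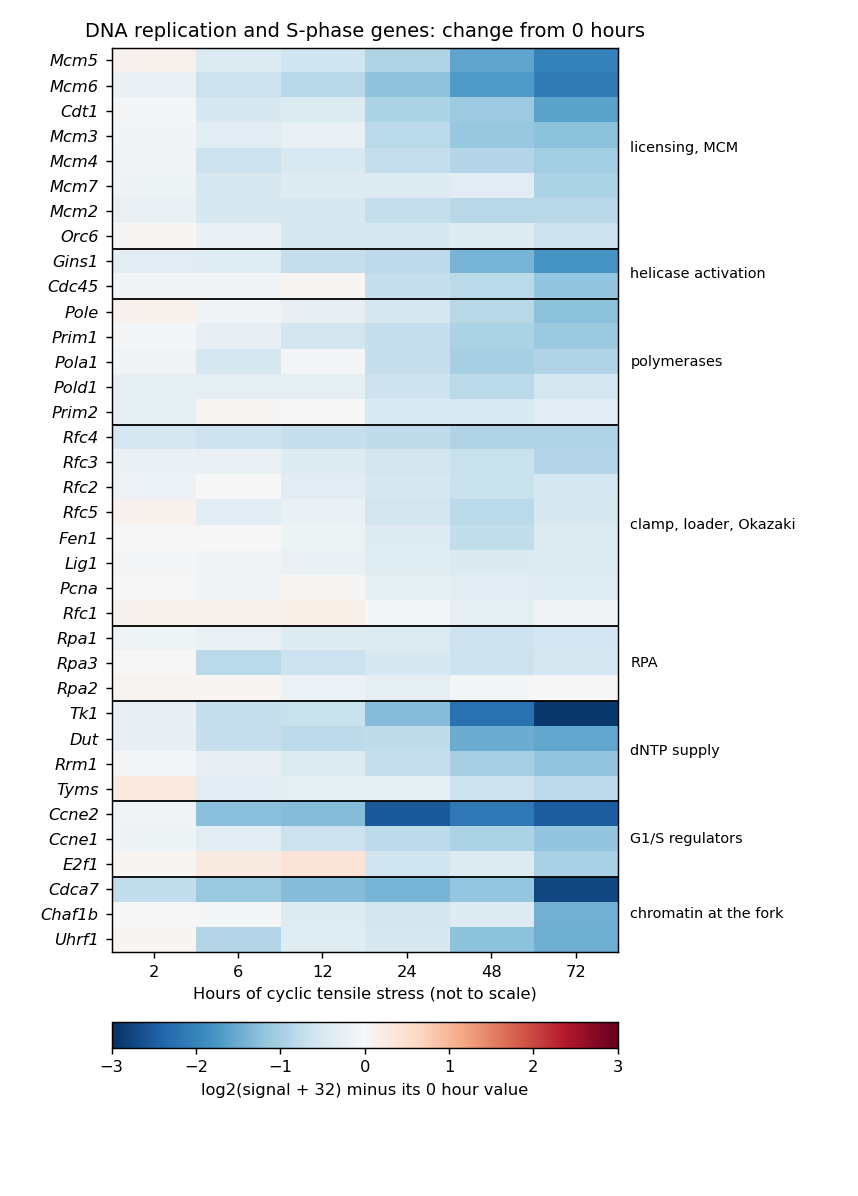
Change of each of the 36 members from the 0 hour array, with hours of cyclic tensile stress on the horizontal axis (not to scale) and genes on the vertical axis, grouped by role and ordered by their ratio at 72 hours. Colour gives the difference in log2(signal + 32), blue for lower and red for higher: the right 3 columns hold no gene above its 0 hour value, and the darkest cells belong to Tk1, Cdca7 and Ccne2.

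The decline was spread over the whole course. The median difference of the members from the 0 hour array on the log2(signal + 32) scale was -0.09, -0.32 and -0.39 on the arrays of 2, 6 and 12 hours and -0.61, -0.83 and -0.96 on those of 24, 48 and 72 hours. Over all probe sets tested the same median stayed between -0.04 and 0.01. At 2 hours 11 members were still above their starting signal, at 6 and at 12 hours 4 were, and at 24, 48 and 72 hours all 36 were below it. Of all 17709 probe sets tested, 8903 were below their start at 72 hours. The median member had 0.480 of its starting signal at 72 hours. A ratio of 0.5 or less was found for 19 of the 36 members and for 1574 of the 17709 probe sets.

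Between neighbouring arrays the most uniform step was that from 12 to 24 hours, when 34 of the 36 members became lower, with a median step of -0.23. Over the same step 8959 of the 17709 probe sets tested became lower. From 6 to 12 hours the members were divided, 20 lower and 16 higher, and the median step was -0.07. The remaining median steps were -0.09 from 0 to 2 hours, -0.21 from 2 to 6 hours, -0.18 from 24 to 48 hours and -0.17 from 48 to 72 hours. Of the members, 7 became lower at every step: Mcm6, Gins1, Rrm1, Rfc3, Rfc4, Prim1 and Ccne1. The lowest array was that of 72 hours for 23 members, that of 48 hours for 10, that of 24 hours for Ccne2 and Rpa2, and that of 6 hours for Rpa3. Neither count was made over all probe sets, so they cannot be read as particular to the members. By interpolation the median member had covered 50% of its 72 hour change after 12.1 hours, with a range of 1.3 to 55.7 hours.

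A second reading took the size threshold from the study's methods, by which a signal had to differ 2-fold or more and by 200 or more from the 0 hour array. It involves no test. No member passed it at 2 hours. Ccne2 and Cdca7 were lower by this threshold at 6 hours, when 2.13% of all probe sets were, and the same 2 genes at 12 hours, when 2.98% were. At 24 hours 5 members were lower, with Mcm6, Cdt1 and Tk1 added, against 2.28% of all probe sets. At 48 hours 12 members were lower against 5.3%, and at 72 hours 15 of 36 against 6.16%. No member was higher at 72 hours, where 4.5% of all probe sets were. With a ratio of at least 1.5 and a difference of at least 100 the number lower at 72 hours became 25, and with a ratio of at least 3 it became 9. The share of all probe sets was not computed for these other thresholds, so the counts show only how the number depends on the threshold.

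**Figure D2:**
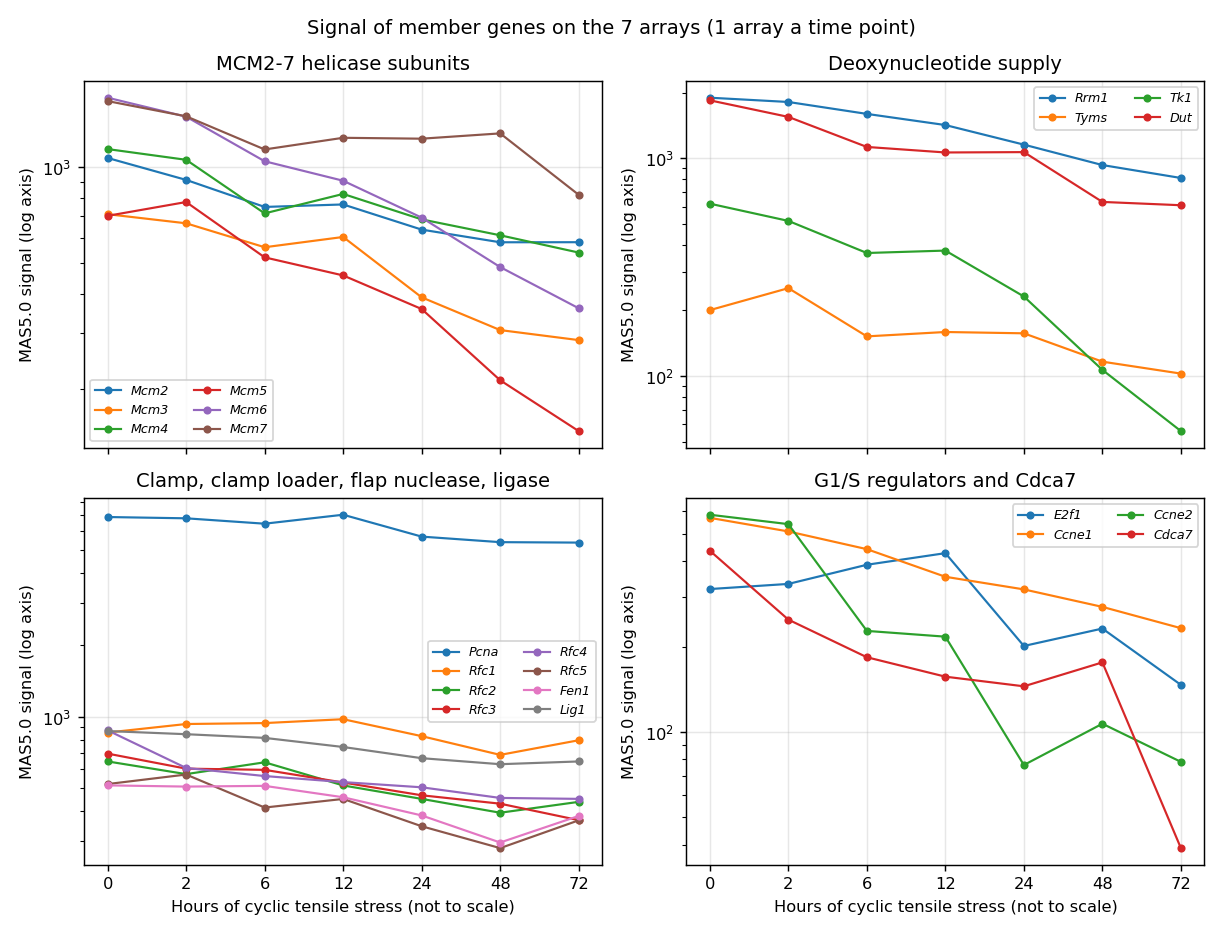
Deposited signal (vertical log axis) of 22 members on the 7 arrays (horizontal axis, hours, not to scale), in panels for the MCM subunits, deoxynucleotide supply, the clamp with its loader and processing enzymes, and the regulators of S-phase entry with Cdca7. Each point is 1 array: Mcm5, Mcm6, Tk1, Ccne2 and Cdca7 end far below their start, Pcna and Rfc1 stay nearly level, and heights of different genes are not comparable.

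Licensing of origins and loading of the helicase were read from 8 members, of which 7 fell. Mcm5, a subunit of the helicase ring, had signals of 702.7, 776.5, 520.3, 456.5, 358, 213.8 and 148 from 0 to 72 hours. After the 2 hour array each later array was lower than the one before, and the fitted change was -2.07 with a standard error of 0.20 (limma adjusted p = 0.000245). Mcm6 had signals of 1652, 1440, 1043, 905.8, 693.6, 485 and 360 in the same order, lower at every step, with a fitted change of -1.95 and a standard error of 0.22 (limma adjusted p = 0.000463).

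Not all subunits of the ring declined alike. The ratio of the 72 hour to the 0 hour signal was 0.211 for Mcm5 and 0.218 for Mcm6, 0.402 for Mcm3, 0.473 for Mcm4, 0.508 for Mcm7 and 0.544 for Mcm2. All 6 fell by limma's test, but the calls of the last 3 were fragile. Mcm7 had 1612 at 0 hours and held between 1136 and 1276 from 6 to 48 hours before it reached 818.3 at 72 hours, and without that last array its adjusted p in limma was 0.56. Leaving out the 0, 2 or 24 hour array also ended its call, at 0.0588, 0.0819 and 0.0514. For Mcm4 the limma adjusted p without the 72 hour array was 0.056, and for Mcm2 leaving out the 2 or the 48 hour array gave 0.0584 and 0.0646. The fitted changes of Mcm2 and Mcm7, -0.71 and -0.63, had standard errors of 0.19 each. Those of Mcm5 and Mcm6 were more than 1 larger in size on the log2 scale, a difference between genes that was not tested.

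Cdt1, which brings the helicase to the origin and is destroyed once S phase begins, fell from 603.5 at 0 hours through 296.9 at 24 hours to 176.2 at 72 hours, a ratio of 0.292 (fitted change -1.50, standard error 0.21, limma adjusted p = 0.00111). Orc6, a small subunit of the origin recognition complex, had 571.2 at 0 hours and 353.3 at 72 hours and did not pass the test (limma adjusted p = 0.0552). It passed without the 12 hour array, at 0.0351. Its other probe sets disagreed in size, with ratios of 0.949 and 0.475. Orc1, the largest subunit, was below the signal limit and entered no test. Its signals of 90.4, 77.9, 64.5, 44.1, 37.5, 20.4 and 18.9 on the 7 arrays were lower at every step.

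Activation of the helicase was read from Gins1 and Cdc45, and both fell. Gins1, a subunit of the GINS complex, had signals of 338.1, 264.6, 255.6, 192.6, 183.4, 107.9 and 75.9 from 0 to 72 hours, with no step upward, and a fitted change of -1.63 (standard error 0.21, limma adjusted p = 0.000801). Cdc45 held between 354 and 395.2 through 12 hours, was 217.8 at 24 hours and ended at 149.2, a ratio of 0.393 (fitted change -1.22, standard error 0.21, limma adjusted p = 0.00263). The probe set used for Cdc45 carries the suffix of designs whose probes may match other transcripts. Its other probe sets that reached the signal limit had ratios of 0.484 and 0.478.

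**Figure D3:**
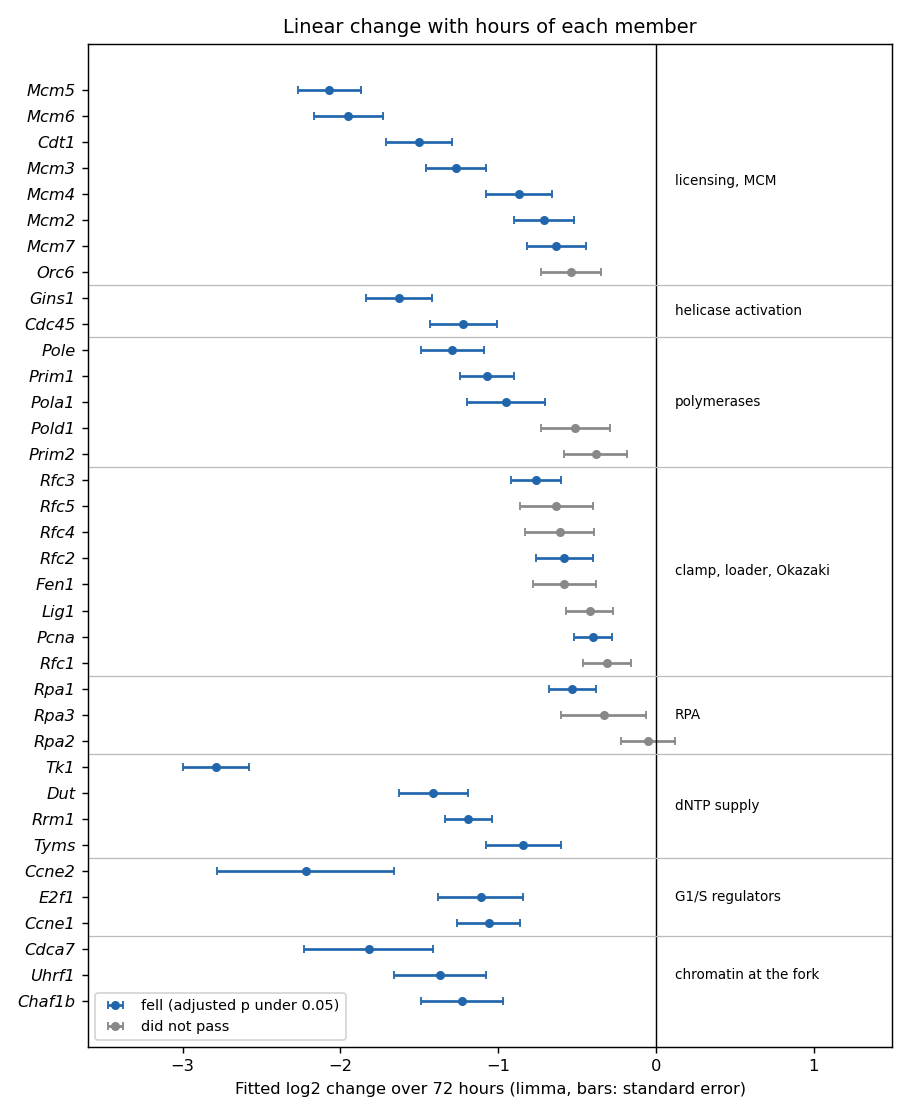
Fitted log2 change over 72 hours (horizontal axis) of each member (vertical axis), with bars for the standard error of limma's slope over the 7 arrays, grouped by role. Blue points fell at an adjusted p under 0.05 and grey points did not pass; every point lies at or left of -0.05, and the grey points gather among the clamp loader, the Okazaki fragment enzymes and RPA.

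Of the 5 polymerase and primase members, 3 fell. Pole, the catalytic subunit of the leading strand polymerase, had 192.1 at 0 hours and 64.4 at 72 hours, a ratio of 0.335 (fitted change -1.29, standard error 0.20, limma adjusted p = 0.00182). Prim1, the catalytic subunit of primase, fell at every step from 1678 to 759.6, a ratio of 0.453 (fitted change -1.07, standard error 0.17, limma adjusted p = 0.00195). Pola1, the catalytic subunit of the polymerase that extends the primers, was 220.3 at 6 hours and 309.9 at 12 hours between 318.9 at the start and 155 at the end. Its limma adjusted p was 0.0169, and became 0.0504 or 0.0579 when the 2 or the 48 hour array was left out. Prim2, the large primase subunit, and Pold1, the catalytic subunit of the lagging strand polymerase, had ratios of 0.766 and 0.673 and did not pass (limma adjusted p = 0.186 and 0.109). Pold1 was lowest at 48 hours, at 197.2, and passed without the 72 hour array, at 0.044.

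The clamp, its loader and the enzymes that process Okazaki fragments showed smaller differences. Of these 8 members 3 fell and none passed the size threshold at 72 hours. Their median log2 difference at 72 hours was -0.44, against -1.13 for licensing and helicase loading. The count of 3 depends on the setting, since Rfc5, Fen1 and Lig1 also fell when the probe sets of each gene at the signal limit were averaged. Fen1 has 1 probe set, so its own values were unchanged there and only the other rows tested differed. Pcna, the sliding clamp, had signals of 6894, 6809, 6463, 7049, 5704, 5406 and 5383. The first 4 arrays lay above the last 3, and the whole difference came to a ratio of 0.781. Its slope passed the test (fitted change -0.40, standard error 0.12, limma adjusted p = 0.0273), yet not without the 2 hour array (0.0684), the 48 hour array (0.0859) or the 72 hour array (0.0746), nor after quantile normalization (0.0755).

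The loader opens the clamp and places it on DNA. Its largest subunit gene, Rfc1, had 856.5 at 0 hours, rather more at 2, 6 and 12 hours with 974.5 as the highest signal, and 794.9 at 72 hours (fitted change -0.31, standard error 0.15, limma adjusted p = 0.154). A second probe set of Rfc1 with a mean signal of 713.5 ended at a ratio of 0.888, and a dimmer one at 0.907. Rfc3 fell at every step from 698.5 to 366.8 (fitted change -0.76, standard error 0.16, limma adjusted p = 0.00603). Rfc2 also fell, with 647.6 at the start and 437.9 at the end (limma adjusted p = 0.0392), a call that was lost without the 0, 2, 6 or 48 hour array, at 0.0704, 0.0795, 0.0698 and 0.118.

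Rfc4 had its largest single step at the outset, from 874.9 at 0 hours to 607.9 at 2 hours, and drifted to 450.8 at 72 hours. Its limma adjusted p was 0.0594, against 0.00879 with log2 of hours in place of hours. Rfc5 was lowest at 48 hours, at 279.9, with 520.3 at the start and 366.2 at the end (limma adjusted p = 0.0673). Its second probe set ended lower, at a ratio of 0.497, and fell (limma adjusted p = 0.00273). Fen1, the flap nuclease, and Lig1, the replicative ligase, had ratios of 0.744 and 0.745 and lay just outside the threshold (limma adjusted p = 0.0521 and 0.0511). Rfc5 and Fen1 both passed without the 72 hour array, at 0.0207 and 0.0158. A second probe set of Lig1 fell, with a ratio of 0.613 (limma adjusted p = 0.0164). With the probe sets of each gene at the signal limit averaged, Rfc5, Fen1 and Lig1 passed, at a limma adjusted p of 0.00863, 0.0466 and 0.02. For Fen1 that setting left the signals unchanged.

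RPA, which coats single-stranded DNA and also serves repair, held the member with the smallest fitted change. Rpa2 had signals of 594.6, 630.6, 625.6, 520.9, 481, 578.4 and 587.5, so the ends of the course differed by a ratio of 0.988 and the array of 24 hours was the lowest (limma adjusted p = 0.869). Rpa3 was 1248 and 1252 on the first 2 arrays, 700.8 at 6 hours and between 785.8 and 891.5 afterwards, a single step with no further decline (fitted change -0.33, standard error 0.27, limma adjusted p = 0.399). Rpa1 fell from 1292 to 855.4, a ratio of 0.662 (fitted change -0.53, standard error 0.15, limma adjusted p = 0.0258), but without the 2 hour or the 48 hour array its adjusted p was 0.0701 and 0.081.

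The supply of deoxynucleotides held the member with the largest fitted change. Tk1, the thymidine kinase of cycling cells, had signals of 619.1, 515.9, 367.4, 376.9, 231.9, 106.7 and 55.9 from 0 to 72 hours. The last array held a ratio of 0.0902 of the first, and the fitted change was -2.79 with a standard error of 0.21 (limma adjusted p = 0.000116). A second probe set of Tk1 had 511.9 at the start and 86 at the end, a ratio of 0.168.

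Dut, which removes dUTP so that uracil is kept out of DNA, fell from 1847 to 608.9, a ratio of 0.330, in one stretch between 0 and 6 hours and another between 24 and 48 hours (fitted change -1.41, standard error 0.22, limma adjusted p = 0.00196). Rrm1, the large subunit of ribonucleotide reductase, fell at every step with signals of 1899, 1815, 1600, 1422, 1156, 931.4 and 812.3 (fitted change -1.19, standard error 0.15, limma adjusted p = 0.000765). Tyms, which makes thymidylate, was dim, with 200.8 at the start and 102.6 at the end, and fell (fitted change -0.84, standard error 0.24, limma adjusted p = 0.0245). Its call was lost without the 2, 48 or 72 hour array, at 0.066, 0.0689 and 0.11.

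All 3 regulators of entry into S phase fell, along different courses. Ccne2, one of the cyclin E genes, had 584.3 and 541.3 at 0 and 2 hours, 227.3 and 216.9 at 6 and 12 hours, and 76.4, 106.9 and 78.4 at 24, 48 and 72 hours. The signals formed 3 levels rather than a line, and the fitted change of -2.22 had the largest standard error among the members, 0.56 (limma adjusted p = 0.015). Ccne1, the other cyclin E gene, declined evenly from 569.7 to 232.4, lower at every step (fitted change -1.06, standard error 0.20, limma adjusted p = 0.00419). E2f1, an activating E2F factor, went the other way at first: 319.4, 333, 389.1 and 427.6 from 0 to 12 hours, then 201.1, 231.7 and 146.6. Its ratio was 1.34 at 12 hours and 0.459 at 72 hours (fitted change -1.11, standard error 0.27, limma adjusted p = 0.0123), and without the 72 hour array the adjusted p was 0.163. No other member was as far above its start at 12 hours.

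The remaining 3 members act on chromatin behind the fork or on its methylation, and all fell. Cdca7, a chromatin remodelling factor induced by MYC and E2F, had 436.1 at 0 hours, already 249.1 at 2 hours, then 183.5, 156.7, 144.9 and 176, and 38.9 at 72 hours. Its ratio of 0.0892 was the lowest of the members, next to that of Tk1. It dropped most between 48 and 72 hours, and the limma adjusted p of 0.00966 became 0.263 without the last array. Uhrf1, which guides the maintenance methylase to replicated DNA, had 386.6 at the start, 195.1 at 6 hours, 292.2 at 12 hours and 119.2 at the end (fitted change -1.37, standard error 0.29, limma adjusted p = 0.00721, and 0.0618 without the 72 hour array). Chaf1b, a subunit of the assembly factor that places histones on new DNA, lay between 132.9 and 210.6 through 48 hours and at 56.0 on the last array. Its limma adjusted p of 0.00745 became 0.246 without that array. Brca1, the repair gene left out by the signal limit, was below 100 on every array and peaked at 94.5 at 2 hours.

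Further probe sets of the members pointed the same way. There were 9 of them, over 6 genes, that reached the signal limit, all of them lower at 72 hours than at 0 hours, with ratios from 0.168 to 0.949, and 5 of the 9 fell. The size of the decline did not follow the mean signal in a simple order. Over the 36 members the Spearman rho of mean signal and log2 difference at 72 hours was 0.31. The mean includes the late arrays, so a decline itself lowers it, and rho cannot show whether dimmer genes declined further. The 6 members with a mean signal of at least 1000 had a median log2 difference of -1.03 at 72 hours, the 19 between 300 and 1000 had -0.84, and the 11 below 300 had -1.22.

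A wider list of 71 genes of replication, nucleotide supply, histone assembly and replication-coupled repair showed a weaker picture. Of its 54 measured genes 20 fell, 1 rose and 33 did not pass, which is 37.0% falling and 1.85% rising beside 16.0% and 13.9% of all named genes tested. The median log2 difference at 72 hours was -0.49. The lowest were Pclaf, a partner of the clamp, with 1801 at the start and 172.5 at the end (ratio 0.0958), Dscc1 of an alternative clamp loader (0.180), the histone chaperone gene Asf1b (0.196), the exonuclease gene Exo1 (0.204) and the recombination gene Rad54l (0.240), and all 5 fell. Rad54l lost its call without the 72 hour array, at a limma adjusted p of 0.315. The highest were Orc2, Chtf8 and Pole4 with ratios of 1.49, 1.29 and 1.21, of which Orc2 rose, from 640.7 to 957.8 (fitted change 0.56, standard error 0.15, limma adjusted p = 0.0209). Without the 2 hour or the 72 hour array it did not pass, at 0.0553 and 0.151.

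Of 29 regulators of cell cycle entry outside the members, 22 were measured, 6 fell, 2 rose and 14 did not pass. The shares were 27.3% falling and 9.09% rising, where 16.0% of all named genes tested fell and 13.9% rose, so risers were no more frequent on the list than among all genes. Cyclin D1, Ccnd1, whose kinase starts the phosphorylation of the retinoblastoma protein, held between 5966 and 6833 through 24 hours and was 4206 at 48 hours and 2320 at 72 hours (fitted change -1.44, standard error 0.17, limma adjusted p = 0.000578). Ccnd3 fell too, to a ratio of 0.481, although not without the 72 hour array (limma adjusted p = 0.129). Among genes that restrain the cycle, Rb1, which encodes the retinoblastoma protein, rose from 878.4 to 1513 (fitted change 0.94, standard error 0.18, limma adjusted p = 0.00439, and 0.0756 without the 72 hour array). Of the related genes Rbl1 and Rbl2, Rbl1 fell from 1071 to 638.5 (limma adjusted p = 0.0349) and Rbl2 did not pass (0.466). Tfdp2, a dimerization partner of E2F factors, rose from 167.8 to 379.3 (fitted change 1.30, standard error 0.26, limma adjusted p = 0.00573). The brighter Tfdp1 had 3553 at the start and 2427 at the end and did not pass (limma adjusted p = 0.14).

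Inhibitors of the cyclin kinases were not uniform. Cdkn1c, p57, fell from 12620 to 3682 with 4546 already at 12 hours (fitted change -1.23, standard error 0.36, limma adjusted p = 0.0285), a call lost without the 2 or the 72 hour array, at 0.076 and 0.143. Cdkn2c, p18, fell from 471.4 to 162 (limma adjusted p = 0.000694). Cdkn2a had 93.2 at the start, 210.1 at 24 hours and 145.6 at the end and did not pass (limma adjusted p = 0.882). The brighter Cdkn1a and Cdkn1b were higher at 72 hours, with ratios of 1.31 and 1.27, and did not pass (limma adjusted p = 0.0872 and 0.0618). Cdkn2d had a ratio of 0.799 and did not pass (limma adjusted p = 0.406), and Cdkn2b was below the signal limit. E2f2, a second activating E2F, had a ratio of 0.284 and missed the threshold (limma adjusted p = 0.0559).

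Genes of mitosis, which are transcribed later in the cycle, moved further than the replication genes. Of 24 measured mitosis genes 23 fell, or 95.8%, where 16.0% of all named genes tested fell. Cenpe was the exception, and the count was added after the data were seen. The median log2 difference of the mitosis genes was -2.04 at 72 hours beside -0.96 for the members. The median of the mitosis genes was the lower one at 2 hours, with -0.21 beside -0.09, and at 6 hours, with -0.57 beside -0.32. At 12 hours the medians nearly met, at -0.40 and -0.39, since the mitosis genes stepped up by a median of 0.07 from 6 to 12 hours. They lay apart again at 24 hours, with -0.86 beside -0.61, and at 48 hours, with -1.59 beside -0.83. By the size threshold 22 of the 24 were lower at 72 hours, against 6.16% of all probe sets. The lowest were the spindle checkpoint kinase Ttk (ratio 0.0737), the cyclins Ccnb2 (0.101) and Ccna2 (0.111), Ube2c (0.124) and Top2a (0.136), and the highest were Cdk1 (0.405), Aurka (0.548) and Cenpe (0.884). Of the members, Tk1, Cdca7 and Ccne2 lay within the range of these 5 lowest ratios. The 2 lists were compared by their medians only, since both were read from the same 7 arrays.

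**Figure D4:**
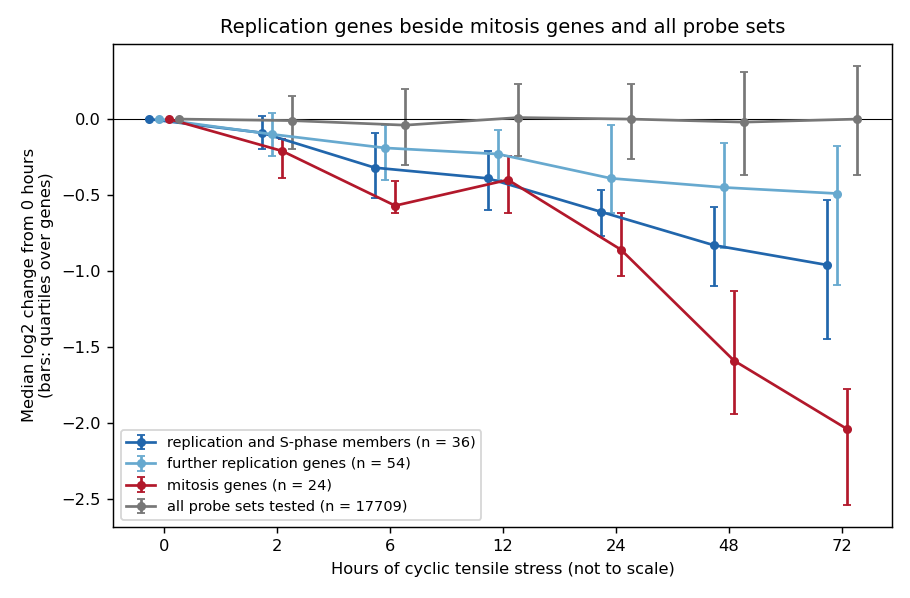
Median log2 difference from the 0 hour array (vertical axis) at each time (horizontal axis, hours, not to scale) for the 36 members, 54 further replication genes, 24 mitosis genes and 17709 probe sets tested, with bars for the quartiles over genes. The mitosis genes lie below the members except at 12 hours, where the medians nearly meet, and the lists end at -2.04 and -0.96, while all probe sets stay near 0.

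The arrays themselves were alike in overall level, with median signals of 144.7 to 162.4 and a trimmed mean of 500.1 to 500.2. The ratio of 3′ to 5′ signal of beta-actin, a reading of RNA quality, was 1.82 at 0 hours, 1.53 at 2 hours and then 1.83, 1.95, 2.20, 2.54 and 2.62, so it climbed together with the decline of the members, while that of Gapdh stayed between 1.09 and 1.17. Sums of marker signals include genes below the signal limit, while tests and threshold counts leave these out. The summed signal of 10 neuron markers was 0.304 of its start at 72 hours and that of 7 microglia and macrophage markers 0.594. Of the 9 neuron markers at the limit 3 fell, and of the 7 microglia and macrophage markers 5 fell. By the size threshold 8 of the 9 and 3 of the 7 were lower at 72 hours, against 6.16% of all probe sets. The sum of 9 neural progenitor and radial glia markers was 0.874 of its start, with Hes5 and Dll1 below the signal limit. Of the 7 measured, Nes was the 1 gene that fell, with a ratio of 0.525. Pax6, at 1.77, was the 1 that rose, and Sox2 had a ratio of 1.34. A sum is carried by the brightest genes of its list. That of 6 astrocyte markers was 0.892 of its start, with Slc1a2 below the limit. Of the other 5, Gjb6 was the 1 gene that fell, and ratios ran from 0.174 for Gjb6 and 0.622 for Gfap to 1.23 for S100b. That of 6 oligodendrocyte lineage markers was 0.975, with Olig1 falling to a ratio of 0.299, Pdgfra at 1.12 and Olig2 and Cspg4 below the limit. That of 6 fibroblast markers was 0.941, with Col1a1 and Col1a2 falling, both to 0.717, and Dcn at 1.85. That of 6 skeletal muscle markers was 0.235, with Ckm below the limit. None of the other 5 passed the test in either direction, while 4 of them were lower by the size threshold at 72 hours. On the endothelium list the defining markers Pecam1, Kdr and Tek were below the limit. The part of RNA quality and of cell composition in the decline of the replication genes was not tested.

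Promoter sequences were read to see what the members share beyond the list. RefSeq windows on the rat build GRCr8, each 300 bases long with 250 before and 50 after an annotated start, were found for 32 of the 36 members, and Mcm4, Rpa3, E2f1 and Ccne2 had none in the table. They were searched on both strands for letters like those bound by E2F (TTTCGCGC, TTTGGCGC, TTTCCCGC and TTTGCCGC), for letters like the CHR element of mitosis genes (TTTGAA and TTCGAA) and for the CCAAT box bound by NF-Y. E2F-like letters stood in the window of 15 of the 32 members, or 46.9%, beside 4.25% of 8609 named genes tested, 2.37% of all 27457 genes with a window and 2.14% of all 33469 windows. Among mitosis genes it was 1 of 21, or 4.76%.

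The CHR-like letters showed the opposite order. They stood in the windows of 6 of 32 members, or 18.8%, of 14 of 21 mitosis genes, or 66.7%, and of 13.9% of the named genes tested and 21.0% of all genes with a window. CCAAT stood in those of 18 members, or 56.2%, of 16 mitosis genes, or 76.2%, and of 39.0% of the named genes tested and 39.6% of all genes with a window. Counted over windows in place of genes, the shares among all windows were 19.7% for the CHR-like letters and 37.5% for CCAAT. A match of letters is a description of the sequence and was not tested as a binding site.

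**Figure D5:**
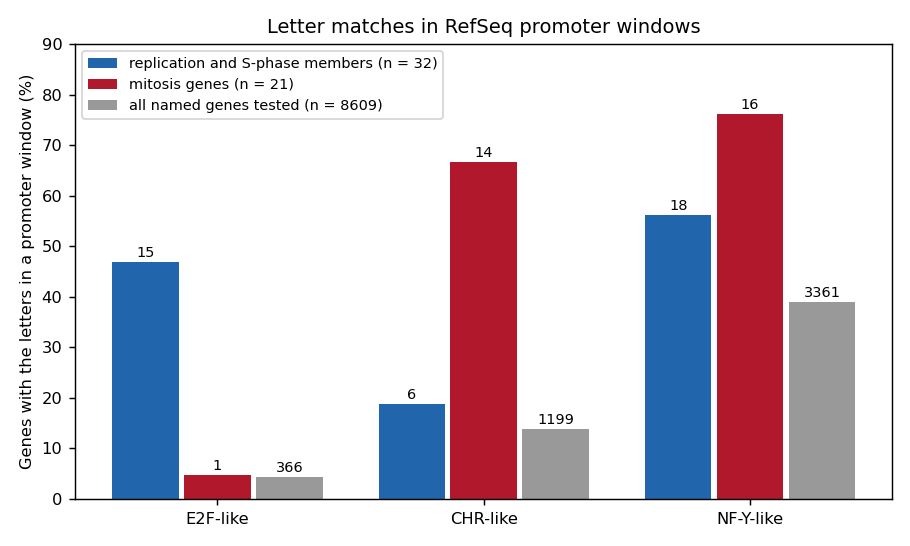
Share of genes (vertical axis, percent) with a letter match in a RefSeq promoter window for the 32 members, 21 mitosis genes and 8609 named genes tested; the number over each bar counts the genes with a match. E2F-like letters are found in 46.9% of the members and 4.76% of the mitosis genes, CHR-like letters in 18.8% and 66.7%.

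By role, E2F-like letters were found for 6 of the 7 members of licensing and helicase loading with a window, namely Mcm2, Mcm3, Mcm5, Mcm6, Mcm7 and Cdt1. They were found for Gins1, for Pola1 and Pole, for Tyms, for Cdca7 and Uhrf1, for Rpa2, and for 2 of the 8 members of the clamp, its loader and Okazaki fragment processing, Rfc3 and Lig1. Of the members that fell 13 of 23 had a match, and of those not called 2 of 9, Lig1 and Rpa2. At or below a ratio of 0.5 at 72 hours 9 of 16 members had one, and above it 6 of 16. These differences in share were not tested. In Mcm2, Mcm5, Mcm6 and Gins1 matches on the 2 strands overlap to form one longer stretch, and such a pair was counted once per window.

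The stretches of 150 bases before the start show these letters for the 4 members with the lowest ratios that hold a match there (Cdca7, Mcm5, Mcm6 and Gins1) and for Mcm2, with capitals marking the E2F-like letters. Tk1, with a ratio nearly as low as that of Cdca7, and Rfc1, which was not called, are shown as members with none. The match begins 57 bases before the start in Cdca7, 8 bases in Mcm5, 139 bases in Mcm6, 25 bases in Gins1 and 14 bases in Mcm2. The overlapping pair of Mcm5 begins 213 bases before the start, outside the stretch shown, which holds its single match. All sequences are from RefSeq, on the strand of the gene, 5′ to 3′.
Cdca7 (GRCr8 chr3:77730165-77730314, plus strand): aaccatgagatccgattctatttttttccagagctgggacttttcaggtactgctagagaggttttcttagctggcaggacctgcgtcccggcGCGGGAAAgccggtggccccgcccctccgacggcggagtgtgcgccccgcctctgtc
Mcm5 (GRCr8 chr19:13488663-13488812, plus strand): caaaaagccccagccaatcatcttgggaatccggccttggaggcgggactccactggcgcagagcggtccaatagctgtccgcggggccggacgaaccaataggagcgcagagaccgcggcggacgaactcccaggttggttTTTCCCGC
Mcm6 (GRCr8 chr13:42404353-42404502, minus strand): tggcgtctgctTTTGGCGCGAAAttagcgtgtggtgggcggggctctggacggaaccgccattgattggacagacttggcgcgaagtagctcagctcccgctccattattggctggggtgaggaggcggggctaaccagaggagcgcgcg
Gins1 (GRCr8 chr3:160184770-160184919, plus strand): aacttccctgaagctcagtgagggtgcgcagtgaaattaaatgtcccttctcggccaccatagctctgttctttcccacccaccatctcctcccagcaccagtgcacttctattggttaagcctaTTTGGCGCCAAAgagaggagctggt
Mcm2 (GRCr8 chr4:122918095-122918244, minus strand): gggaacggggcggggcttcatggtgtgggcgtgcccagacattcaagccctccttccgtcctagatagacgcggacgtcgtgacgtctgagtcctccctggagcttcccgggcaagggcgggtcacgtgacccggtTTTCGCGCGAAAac
Tk1 (GRCr8 chr10:103544778-103544927, minus strand): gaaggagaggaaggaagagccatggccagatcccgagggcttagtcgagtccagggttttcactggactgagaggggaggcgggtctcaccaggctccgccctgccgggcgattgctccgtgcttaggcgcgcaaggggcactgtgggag
Rfc1 (GRCr8 chr14:43319848-43319997, plus strand): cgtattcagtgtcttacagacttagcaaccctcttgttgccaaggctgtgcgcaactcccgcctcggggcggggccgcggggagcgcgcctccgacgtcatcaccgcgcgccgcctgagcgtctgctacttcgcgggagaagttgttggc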

How the data were processed

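The authors deposited 1 linear signal intensity per probe set and array, calculated by them in GCOS with MAS5.0 and global scaling to a common trimmed mean, so the values are already background-corrected and scaled, and low ones are unreliable: 42.5% to 44.3% of the signals of each array were below 100. MAS5 scaling forces equal array means, so a shift shared by all genes cannot be seen. Here the 57 controls were left out, log2(signal + 32) was taken for the 17709 of 31042 probe sets whose signal averaged 100 or more, and a line in hours was fitted with limma 3.58.1 (R 4.3.3, lmFit, eBayes with an intensity trend, 5 residual degrees of freedom, Benjamini-Hochberg adjustment). The number of arrays limits the precision. The script was tested on simulated data. Symbols came from the platform annotation, with 20826 probe sets of 1 symbol, 436 of several and 9780 without. Members and lists were chosen with earlier results of these data known. All members are named. Of the other lists the 5 lowest and 3 highest ratios and each gene that rose are named, with Rbl1, Rbl2 and Tfdp1 set beside Rb1 and Tfdp2. The remaining cyclin kinase inhibitors on the list of entry regulators are named too. Alternatives covered normalization, pseudocount, signal limit, time scale, averaging of probe sets, baseline, size threshold and leaving out each array.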

Additional observations from a re-analysis of the deposited data

How the results depend on the processing

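Each time has 1 array, which limits every result here, and no test of a single time was possible. No paired analysis was possible because no time point has replicate arrays. With 1 array left out, 19 to 27 members fell and none rose, and under the other alternatives 23 to 32 fell and none rose. The 23 belong to a signal limit of 200, which left 32 members. The 14 members Mcm3, Mcm5, Mcm6, Rrm1, Cdt1, Cdc45, Gins1, Pole, Rfc3, Prim1, Dut, Tk1, Ccne1 and Ccne2 fell under every alternative that tested them. Pole was not tested at the signal limit of 200. Leaving out an array ended the calls of 12 other members and made 4. The number lower by the size threshold at 72 hours was 25 with a ratio of at least 1.5 and a difference of at least 100, 9 with a ratio of at least 3, and 12 to 16 otherwise. The share of all probe sets at the looser and the stricter threshold was not computed. The median log2 difference of the members ran from -1.06 with a pseudocount of 1 to -0.83 with a pseudocount of 100 or with the 48 hour array in place of the 72 hour array. Of the further replication genes 14 to 19 fell and 0 to 1 rose with 1 array left out, of the regulators of entry 4 to 7 fell and 2 to 3 rose, and 4 rose after quantile normalization. Of the mitosis genes, whose count was chosen under all settings after seeing the data, 21 to 23 fell with 1 array left out. Reversed slopes, none past the threshold, were found with 1 array left out for Rpa2 (-0.21 to 0.01, the latter without the 2 hour array), Pole4 (-0.19 without the 72 hour array to 0.39), Chtf8 (-0.24 without the 72 hour array to 0.40) and Cdkn2a (-0.38 to 0.11, the latter without the 48 hour array), and for Cdkn2a also with log2 hours (0.30) and the order of the arrays (0.21). With each array scaled to the same median, the median log2 difference of all probe sets tested was 0.13, 0.12 and 0.14 at 2, 6 and 12 hours. Under that scaling 28 members fell. The causes were not tested.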
